A study of Mus musculus with 14 samples.

Results

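The 40 genes described here are known from brain endothelial cells, pericytes and vascular smooth muscle, and they were followed in RNA from microglia purified with magnetic beads (MACS), where vessel cells are carried along. They were given as a list of symbols, and all 40 were found among the 41739 genes of the table. By role they comprised 18 pan-endothelial genes, 5 genes of barrier transport, 6 genes of endothelial activation or venous identity, 8 pericyte genes and 3 smooth muscle genes, the last 2 sets being 11 mural genes. Each of the 40 had at least 1 TPM (transcripts per 1000000) in at least 3 libraries and so entered the fit over 18724 genes. The 14 libraries came from mice of the genotypes Rheb F/F, called WT, and Rheb F/F; Tmem119-cre ER, called KO, in which a tamoxifen-dependent Cre is placed at Tmem119, a microglial gene. Mice of all groups had been given tamoxifen and, at 8 weeks of age, an injection into the abdomen on each of 4 days, of PBS or of LPS (bacterial endotoxin) at 1 mg/kg. There were 3 WT PBS libraries (WT904, WT913 and WT914 in the labels), 3 KO PBS libraries (KO911, KO912 and KO915), and 4 libraries each of WT LPS and KO LPS (1 to 4 in each), and values below follow that order. Selp and Sele met the filter of 1 TPM in 3 libraries only through LPS libraries, so their LPS tests are not independent of that filter. Whether each library is its own animal is not stated in the labels, and p-values here refer to the spread among libraries, which may be technical.

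Endothelial cells line the vessel wall, and in the brain their tight junctions and transporters form the blood-brain barrier. Pericytes share the basement membrane of capillaries, and smooth muscle cells wrap arteries and veins. In inflammation endothelial cells, those of venules above all, place P-selectin and E-selectin on their surface, which slow passing leukocytes, and the receptor Ackr1 carries chemokines across venular cells. A gene of vessel content tracks how much vessel is in an isolate, whereas an activation gene can move at constant content. In bulk RNA fewer cells of a type and less RNA per cell cannot be told apart. Rheb in the vessel cells themselves was not measured, since each library is a mixture.

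Rheb stood at 16.6 to 19.1 TPM in KO PBS against 29.7 to 34.5 in WT PBS, and at 19.5 to 25.5 in KO LPS against 25.1 to 33.6 in WT LPS. The microglial gene Csf1r was high in every library, at no less than 3030 TPM, so the labelled cell type was present throughout. The design text calls the mice female, but Ddx3y, a gene of the Y chromosome, was at 111 to 146 TPM in the PBS libraries and at most 0.270 in the LPS libraries, while Xist was at most 0.147 TPM in the PBS and at least 255 TPM in the LPS libraries. LPS and sex therefore cannot be told apart in any comparison of LPS with PBS below, and neither can Rheb loss and the Cre allele in any comparison of genotypes. WT914 and KO LPS 3 held the pituitary hormone gene Gh at 78126 and 19672 TPM, against at most 1.90 elsewhere. The noncoding RNA Gm23935 ran from 566 to 2477 TPM with PBS and from 40440 to 153781 TPM with LPS, and the median log2 change of all 18724 genes with LPS was -0.28 in WT and -0.22 in KO. After median-of-ratios scaling, which sets the libraries to a common median ratio over genes, those medians were 0.01 and 0.0024. Read depth recovered from the TPM was 8.00 M in KO LPS 4 and 15.7 to 32.3 M (M, 1000000 reads) in the other libraries.

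Vessel RNA was present in all 14 libraries, and its amount varied widely within groups. Summed over the 18 pan-endothelial genes, the 3 WT PBS libraries held 1743, 2276 and 1348 TPM and the 3 KO PBS libraries 739, 837 and 1516 TPM. The 4 WT LPS libraries held 2718, 2129, 996 and 1506 TPM and the 4 KO LPS libraries 2095, 729, 1955 and 1586 TPM. The ranges of all 4 groups overlapped. Group means were 1789 ± 466 (SD, n = 3), 1030.4 ± 423 (SD, n = 3), 1838 ± 748 (SD, n = 4) and 1591 ± 614 TPM (SD, n = 4).

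The genes moved together from library to library. Library 3 of WT LPS was the lowest of its group for 18 of 18 pan-endothelial, 5 of 5 barrier transport and 8 of 8 pericyte genes. Library 2 of KO LPS was the lowest of its group for 17 of 18, 5 of 5 and 8 of 8 of them. Within WT PBS, WT913 was the highest for 17 of 18 pan-endothelial and 8 of 8 pericyte genes, and WT914, 1 of the 2 with pituitary RNA, was the lowest for 16 of 18 and 6 of 8. Within KO PBS, KO915 was the highest for 17 of 18 pan-endothelial and 7 of 8 pericyte genes. Members of a set are thus not independent of each other, and a count of members in 1 direction is read here as a description of content.

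**Figure D1:**
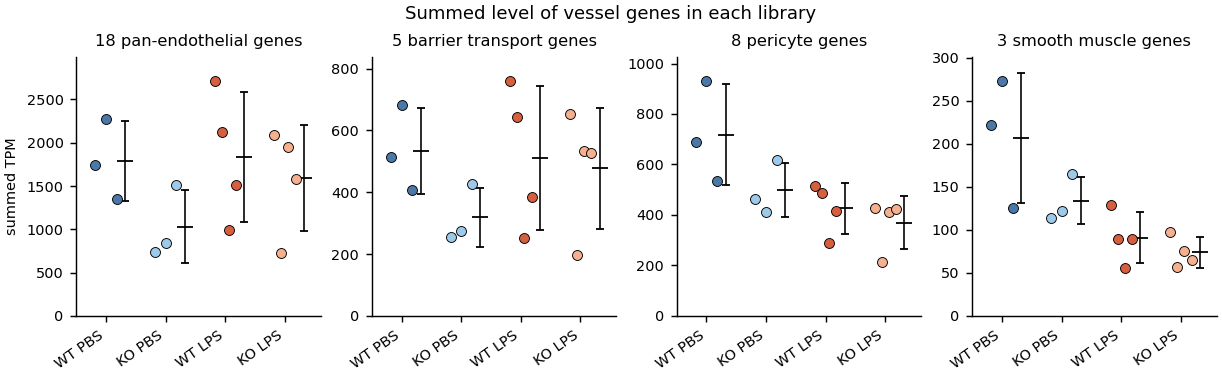
Summed TPM of the 18 pan-endothelial, 5 barrier transport, 8 pericyte and 3 smooth muscle genes in each library (points), with the mean ± SD of each group (bar and whiskers). Pan-endothelial sums overlap between all 4 groups, whereas pericyte and smooth muscle sums have lower means in the LPS group of each genotype.

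Under PBS, vessel genes were lower in KO than in WT for nearly all members, but the difference was called for 1 gene. Of the 40 members 39 had a log2 fold change below 0, with a median of -0.70, where 50.2% of all genes were below 0 and their median was -0.0024. A gene is called here at a limma p, adjusted over all 18724 genes, under 0.05; fold changes are of log2(TPM + 1), which understates changes of low genes, and are given ± SE. Ctla2b, which encodes an inhibitor of cathepsin-like proteases, fell in KO by 1.40 ± 0.28 (adjusted p = 0.0434), where 0.224% of all genes were called lower. Its TPM were 5.11, 6.75 and 6.61 in WT PBS and 1.90, 2.14 and 1.15 in KO PBS. The groups did not overlap, but Ctla2a and Ctla2b are near-identical genes whose reads can be split wrongly, and the call was lost in 10 of 14 fits with 1 library left out (any of the PBS libraries, WT LPS 1 or 2, or KO LPS 1 or 3), with an adjusted p of up to 0.133. Unadjusted p was under 0.05 for 8 of the 40, and for 2935 of all 18724 genes.

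The pan-endothelial genes had the lower values in KO PBS: all 18 were below 0, with a median of -0.90, and for 8 of them the groups did not overlap, against 10.9% of all genes lower without overlap. Pecam1, an adhesion molecule of endothelial junctions that platelets and leukocytes also carry, was at 92.1, 106 and 70.1 TPM in WT PBS and at 30.9, 36.3 and 62.7 in KO PBS. Its difference was -1.08 ± 0.34 (adjusted p = 0.156), not past the threshold although no KO library reached the lowest WT library. Cdh5, the cadherin of endothelial junctions, was at 59.5, 73.2 and 51.6 TPM in WT PBS and at 26.9, 31.9 and 54.6 in KO PBS, with KO915 inside the WT range (-0.74 ± 0.36, adjusted p = 0.345). The other members without overlap were Kdr, a VEGF receptor, Tie1, a receptor tyrosine kinase, Emcn, a sialomucin, Eng, a TGF-beta co-receptor, Robo4, a guidance receptor, and the transcription factor gene Sox17. Adjusted p-values of the 17 pan-endothelial genes other than Ctla2b were at least 0.156.

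The barrier transport genes lay below 0 as well, with a median of -0.77 over 5 genes. Mfsd2a, a lipid transporter that restrains vesicle traffic across the barrier, was at 67.5, 86.3 and 53.9 TPM in WT PBS and at 26.0, 23.5 and 50.7 in KO PBS (-1.09 ± 0.46, adjusted p = 0.279). It and the thyroxine transporter gene Slco1c1 did not overlap between the groups. Mural genes differed less: the 11 had a median of -0.41 and overlapped between groups without exception. Vtn, which brain pericytes express strongly, stood at 275, 360.2 and 223 TPM in WT PBS and at 205, 182 and 254 in KO PBS, the ranges overlapping (-0.41 ± 0.23, adjusted p = 0.414). With 1 library left out in turn, the median of the 40 ran from -0.97 without KO915 to -0.54 without KO911 and was below 0 in 14 of 14 such fits. Without both WT914 and KO LPS 3, the libraries with pituitary RNA, it was -0.89. The summed level of 10 platelet genes was at 300 to 357 TPM in KO PBS and 180 to 290 in WT PBS. Of that sum Pf4 made up 146 to 177 TPM in KO and 71.1 to 138 in WT. Gp9 was at 49.3 to 71.6 in KO and 48.3 to 53.6 in WT, and Itga2b at 0.902 to 3.19 and 2.30 to 2.96. Ppbp was at no more than 0.757 in either and Gp1bb at 0 in all 14 libraries. Of the 7 platelet genes that could be fitted 0 were called, 5 lay above 0 and 2 below, with a median of 0.04. The part of platelet RNA in the vessel gene differences was not tested.

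Under LPS the genotypes did not separate in any of the 40 genes. limma called 0 of 40 (0.497% of all genes were called), and limma-voom on recovered reads also called 0. In limma the unadjusted p was under 0.05 for 0 of the 40, and for 2183 of all 18724 genes. Of the 40, 34 lay below 0, as did 37.1% of all genes, with a median of -0.14 beside 0.07 for all genes, and for 0 members were the groups free of overlap, against 6.18% of all genes. The smallest adjusted p was 0.601, for Pdgfrb, the PDGF receptor of pericytes (-0.34 ± 0.22). The median turned above 0 without KO LPS 2 (0.13) or without WT LPS 1 (0.01), and it was -0.37 without WT LPS 3. The activation genes Ackr1, Selp and Sele differed by -0.17 ± 0.34, 0.31 ± 0.28 and -0.10 ± 0.46 between genotypes under LPS (adjusted p of 0.896, 0.732 and 0.957). An exact two-sided permutation test over libraries gave p of 0.714, 0.429 and 0.914 for them, where the smallest possible value was 0.0286.

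LPS was accompanied by large rises of the activation genes in both genotypes. Of the 6 activation and venous genes 5 rose in WT and the same 5 rose in KO, namely Ackr1, Selp, Sele, Vwf and Lrg1, where 7.95% and 7.82% of all genes were called higher. Over all 40 members, 6 rose and 7 fell in WT, and 9 rose and 3 fell in KO, where 34.1% and 26.9% of all genes were called lower; falls were thus a smaller share of the members than of all genes. Groups did not overlap for 4 higher and 8 lower members in WT (8.45% and 37.4% of all genes), and for 8 higher and 3 lower in KO (9.52% and 31.3%). Upstream sequence is shown for the 3 genes that define activation, because all went from at most 20 reads in a PBS library to at least 211 in an LPS library. Each of the first 2 lines is the 250 bases before the start of a selectin gene, from RefSeq on GRCm38.p6, 5′ to 3′ on the gene's strand, and the third is a 30-base stretch upstream of Ackr1. Capitals mark GGNNNTTCC, a relaxed form of the NF-kB binding pattern, or its reverse complement, since both strands were searched. The windows are Selp chr1:164115014-164115263 (+), Sele chr1:164047984-164048233 (+) and Ackr1 chr1:173333615-173333644 (-).
Selp: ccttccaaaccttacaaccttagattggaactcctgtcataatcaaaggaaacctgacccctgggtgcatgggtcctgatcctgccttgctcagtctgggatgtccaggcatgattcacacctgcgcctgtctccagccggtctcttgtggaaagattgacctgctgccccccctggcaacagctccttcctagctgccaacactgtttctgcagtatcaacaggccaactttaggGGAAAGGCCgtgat
Sele: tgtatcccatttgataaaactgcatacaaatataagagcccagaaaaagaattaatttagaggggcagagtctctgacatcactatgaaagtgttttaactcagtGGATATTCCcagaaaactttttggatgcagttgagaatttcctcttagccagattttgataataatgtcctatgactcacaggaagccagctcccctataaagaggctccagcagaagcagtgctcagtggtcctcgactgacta
Ackr1: cttcaaaacaGGAAGCCCCaggatggtgcc

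The matches began 14 bases before the start in Selp, 145 before it in Sele and 131 before it in Ackr1. The pattern was chosen after the sequences had been seen. It occurred in 15.7% of 32851 promoter windows of the same length and in 9 of the 28 members that had an entry, so a match is a description only. Whether any of these matches is bound was not tested. A stricter NF-kB consensus, held by 7.25% of the windows, was found in 5 of the 28 and in none of these 3 genes. Both selectin genes lie on chromosome 1, as neighbours within the same cluster.

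Ackr1, the chemokine-binding receptor of venules, was at 2.51, 2.37 and 0.811 TPM in WT PBS and at 1.31, 3.12 and 2.56 in KO PBS. Under LPS it was at 224, 213, 81.0 and 178 TPM in WT and at 215, 100.4, 155 and 129.9 in KO. Every LPS library lay far above every PBS library, and the lowest values under LPS were those of the 2 libraries with the least vessel RNA. The log2 change was 5.88 ± 0.37 in WT (adjusted p = 6.0e-07) and 5.49 ± 0.37 in KO (adjusted p = 1.0e-06). In reads, 36 in WT PBS stood against 7977 in WT LPS, a ratio of read rates of 108 (95% exact interval 78.1 to 155), and 48 against 4288 in KO, a ratio of 75.6 (56.9 to 103); these intervals cover counting error only.

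Selp, which encodes P-selectin, stored in endothelial cells and platelets and brought to the surface on activation, was at 0.150, 0.592 and 0.559 TPM in WT PBS and at 0.325, 0.209 and 0 in KO PBS. Under LPS it was at 18.2, 17.1, 15.8 and 40.8 TPM in WT and at 38.5, 28.0, 22.7 and 20.1 in KO. There was again no overlap, and WT LPS 4 stood apart at the top of its group. The change was 3.97 ± 0.31 in WT (adjusted p = 3.9e-06) and 4.55 ± 0.31 in KO (adjusted p = 1.0e-06). The 11 reads of KO PBS and the 27 of WT PBS make the PBS level imprecise, with read-rate ratios of 192 (107 to 384) in KO and 55.8 (38.3 to 84.8) in WT.

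Sele, which encodes E-selectin, an endothelial adhesion molecule that is made anew on cytokine stimulation, was at 0.227, 0.571 and 1.11 TPM in WT PBS and at 0, 0 and 0.0617 in KO PBS. Under LPS it was at 45.7, 23.1, 29.0 and 68.1 TPM in WT and at 70.9, 12.03, 34.1 and 52.5 in KO. It rose by 4.61 ± 0.49 in WT (adjusted p = 4.4e-05) and by 5.16 ± 0.49 in KO (adjusted p = 1.5e-05). Since KO PBS held 1 read of Sele in 3 libraries, the KO ratio of 1939 had an interval of 348 to 76636, and the WT ratio was 68.0 (46.7 to 103). For Ackr1, Selp and Sele an exact two-sided permutation test of LPS against PBS gave p = 0.0571 in each genotype, the smallest that 3 against 4 libraries allow. Under PBS Selp was at most 0.592 TPM and Sele reached 1 TPM in WT914 alone, so both passed the filter only through LPS libraries.

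Vwf, the clotting factor held in endothelial granules and in megakaryocytes, was at 17.8, 27.9 and 13.4 TPM in WT PBS, at 8.80, 11.0 and 14.9 in KO PBS, at 67.0, 47.0, 20.8 and 46.9 in WT LPS and at 61.7, 24.8, 53.4 and 44.0 in KO LPS. It rose by 1.86 ± 0.38 in KO (adjusted p = 0.0025), without overlap, and by 1.11 ± 0.38 in WT (adjusted p = 0.0321), where WT LPS 3 fell inside the PBS range. The WT call was lost without WT904 or WT914 or without WT LPS 1, 2 or 4, with an adjusted p of up to 0.12. Summed platelet genes were at 167 to 201 TPM in WT LPS and 170 to 231 in KO LPS, of which Pf4 made up 66.1 to 144, and of the 7 that could be fitted 0 rose, 1 fell in WT and 2 fell in KO. The part of platelet RNA in the Vwf and Selp changes was not tested.

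Lrg1, a secreted glycoprotein of activated endothelium that neutrophils also make, was at 24.2, 27.7 and 67.0 TPM in WT PBS, at 14.6, 20.0 and 28.1 in KO PBS, at 74.9, 70.3, 118 and 121 in WT LPS and at 129.7, 123, 78.3 and 48.4 in KO LPS. It rose by 1.36 ± 0.39 in WT (adjusted p = 0.015) and by 2.07 ± 0.39 in KO (adjusted p = 0.0015). The WT call was lost without WT904 (0.0745) or WT913 (0.0623). In contrast to Ackr1 and Vwf, its values did not follow vessel content. The neutrophil gene S100a8 was at 1456, 1959 and 5875 TPM in WT PBS, between 1274 and 2039 in KO PBS, at 2654, 3169, 7116 and 5623 in WT LPS and at 6951, 6846, 4104 and 3518 in KO LPS; WT914, WT LPS 3 and 4 and KO LPS 1 and 2 were the high libraries of both genes. The part of neutrophil RNA in the Lrg1 change was not tested.

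Plvap, the diaphragm protein of fenestrated endothelium, which mature barrier vessels lack, was the 1 gene of its set that was not called. It was at 2.77, 2.27 and 41.0 TPM in WT PBS, at 3.40, 4.30 and 4.16 in KO PBS, 3.77, 2.29, 1.06 and 0.157 in WT LPS and 1.70, 2.26, 15.4 and 1.67 in KO LPS. The 2 high values belong to WT914 and KO LPS 3, the libraries with pituitary hormone RNA, and the part of that tissue in them was not tested. The difference with LPS was -1.70 ± 0.85 in WT (adjusted p = 0.125) and -0.16 ± 0.85 in KO (adjusted p = 0.909).

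**Figure D2:**
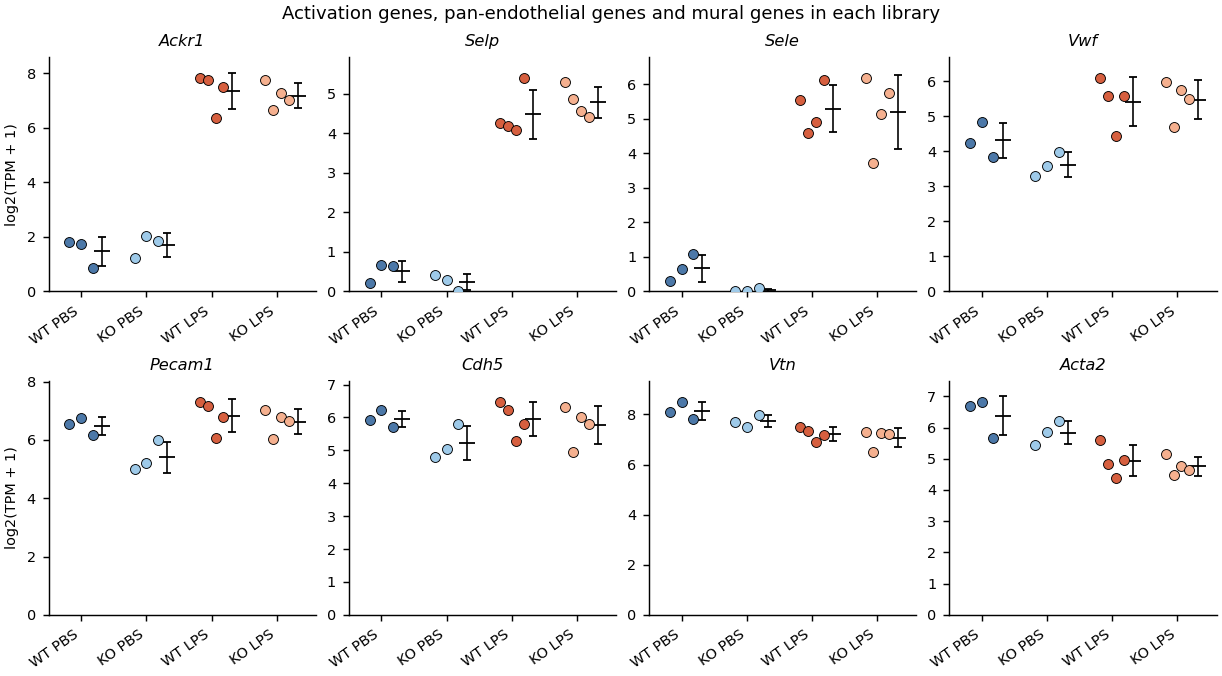
log2(TPM + 1) of Ackr1, Selp, Sele, Vwf, Pecam1, Cdh5, Vtn and Acta2 in each library (points), with the mean ± SD of each group (bar and whiskers). Ackr1, Selp and Sele separate all LPS from all PBS libraries in both genotypes, Cdh5 overlaps throughout, and Vtn and Acta2 are lower under LPS without overlap within a genotype.

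Genes of vessel content did not move as a block with LPS in WT. The 18 pan-endothelial genes had a median of -0.16 there, which turned to 0.17 after median-of-ratios scaling and to 0.13 without WT LPS 3, and the ratio of mean sums was 1.03. In KO 16 of the 18 were above 0, where 67.3% of all genes were below it, with a median of 0.59 and a ratio of mean sums of 1.54, but the 2 KO groups overlapped in their sums. That median was 1.05 without KO LPS 2 and 0.40 without KO LPS 1. Without the 6 members that blood cells also express (Ly6c1, Ctla2a, Ctla2b, Pecam1, Eng and Esam), the ratios were 0.941 in WT and 1.41 in KO.

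In KO 4 pan-endothelial genes rose with LPS: Pecam1 by 1.21 ± 0.32 (adjusted p = 0.0103), Podxl by 1.26 ± 0.40 (0.0262), Ctla2a by 2.01 ± 0.39 (0.0018) and Ctla2b by 1.28 ± 0.26 (0.0025). In WT Ctla2a alone of these 18 rose, by 1.17 ± 0.39 (adjusted p = 0.0288), and that call was lost without WT904 or WT914 or WT LPS 1 or 2. Among all genes 7.82% rose in KO and 7.95% in WT, so the WT count was near that share. Ctla2a was at 21.2, 25.3 and 17.7 TPM in WT PBS, at 8.46, 7.78 and 18.7 in KO PBS, 75.7, 72.1, 23.3 and 44.8 in WT LPS and 59.4, 31.6, 59.9 and 41.6 in KO LPS, with 1 WT LPS library inside the WT PBS range. Pecam1 under LPS was at 157, 144, 66.2 and 109.9 TPM in WT and at 129.7, 64.3, 108 and 99.0 in KO, so that all KO LPS libraries lay above KO PBS, and 3 of 4 within the range of WT LPS. The KO call of Pecam1 was lost without KO911 (0.0513). Podxl, a sialomucin of the luminal surface, was at 93.9, 129 and 85.3 TPM in WT PBS, at 39.0, 49.4 and 91.6 in KO PBS, 229, 219.8, 98.3 and 132 in WT LPS and 199.8, 68.8, 188 and 132 in KO LPS. Its KO call was lost without KO911 or KO912 or KO LPS 1 or 3. Without KO LPS 2 the genes Emcn, Esam, Ly6c1, Robo4, Sox17 and Tie1 also passed the threshold in KO, so that 15 members rose there in place of 9. Of all 18724 genes 1386 rose in that fit. Scaling by median of ratios added Esam, Robo4 and Tagln, for 12 higher and 0 lower members in KO, where 12.5% and 10.3% of all genes were called higher and lower.

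Cldn5, the main tight junction claudin of brain endothelium, was at 338, 381 and 249 TPM in WT PBS, at 139, 177 and 327 in KO PBS, at 423, 227, 130.3 and 173 in WT LPS and at 310.4, 85.2, 297 and 192 in KO LPS. Its 4 groups overlapped, and the libraries at the top and bottom of each group were those at the top and bottom of the pan-endothelial sum. That sum includes Cldn5 itself, so part of this match is built in.

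The 5 barrier transport genes included 0 called in either genotype, by limma or by voom, with 1 unadjusted p under 0.05 in limma in WT and 0 in KO. Among all 18724 genes that p was under 0.05 for 9451 in WT and 8345 in KO. Mfsd2a had the lowest p in WT, at 50.9, 35.2, 15.8 and 36.8 TPM in WT LPS, all below WT PBS (-1.06 ± 0.43, adjusted p = 0.0615). In KO LPS it was at 39.5, 12.8, 39.7 and 31.8 TPM, overlapping KO PBS (-0.14 ± 0.43, adjusted p = 0.83). Slco1c1 was at 155, 188 and 127 TPM in WT PBS, at 106, 97.7 and 125 in KO PBS, at 258, 222, 83.6 and 115 in WT LPS and at 221, 82.0, 165 and 167 in KO LPS, with the LPS groups spanning the whole PBS range. Abcb1a, the efflux pump P-glycoprotein, changed by 0.04 ± 0.45 in WT and 0.65 ± 0.45 in KO, and the organic anion transporter gene Slco1a4 by -0.24 ± 0.49 and 0.56 ± 0.49. Slc7a3, an amino acid transporter, was low, between 0.626 and 2.89 TPM in all libraries.

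Of the mural genes 7 of 11 fell with LPS in WT, where 34.1% of all genes were called lower. In KO 3 of 11 fell, a share near the 26.9% of all genes. All 11 were below 0 in WT and 10 of 11 in KO (71.1% and 67.3% of all genes were), with medians of -0.77 and -0.48, below the medians of all genes of -0.28 and -0.22. After median-of-ratios scaling the medians were -0.45 and -0.23, and 2 of 11 were called lower in WT (Vtn and Acta2, against 13.2% of all genes) and 0 of 11 in KO. Summed mural TPM was 925 ± 274 (SD, n = 3) in WT PBS and 518 ± 128 (SD, n = 4) in WT LPS, a ratio of 0.559. In KO PBS it was 631 ± 133 (SD, n = 3) and in KO LPS 444 ± 116 (SD, n = 4), a ratio of 0.703. PBS and LPS libraries overlapped in neither genotype in these unscaled sums. The gaps were narrow, with WT914 at 658 and WT LPS 1 at 642, and KO912 at 535 and KO LPS 1 at 527. Median-of-ratios scaling divides these by 1.07, 0.939, 1.18 and 0.985, in that order. After it both LPS libraries lay above the PBS libraries named, so the groups overlapped.

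Acta2, smooth muscle actin, is the mural gene with the largest fall in both genotypes, and Myl9 encodes a light chain of its myosin. Stretches upstream of both are shown because the transcription factor SRF acts on such contractile genes through the CArG element. Capitals mark CC and GG around 6 bases of which at least 5 are A or T, a relaxed form of that element chosen after the sequences had been seen, on RefSeq GRCm38.p6: Acta2 chr19:34255438-34255467 (-) and chr19:34255388-34255417 (-), Myl9 chr2:156775293-156775322 (+) and chr2:156775355-156775384 (+).
Acta2 at -84: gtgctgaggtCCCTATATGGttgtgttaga
Acta2 at -34: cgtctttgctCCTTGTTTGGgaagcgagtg
Myl9 at -161: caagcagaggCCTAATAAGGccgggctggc
Myl9 at -99: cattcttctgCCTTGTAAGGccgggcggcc

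The relaxed form was held by 8.59% of promoter windows and by 6 of 28 members, and the strict element, by 1.47% of windows, was found among the members in Myl9 only. Acta2 was at 102, 112 and 49.3 TPM in WT PBS, at 42.6, 57.3 and 72.5 in KO PBS, 47.6, 27.2, 20.0 and 29.9 in WT LPS and 34.6, 21.1, 26.0 and 24.0 in KO LPS. Within each genotype LPS libraries lay below PBS libraries, though WT LPS 1 lay close under WT914. Acta2 fell by 1.44 ± 0.31 in WT (adjusted p = 0.0032) and by 1.08 ± 0.31 in KO (adjusted p = 0.0176), the KO call being lost without KO912 (0.0536) or KO915 (0.0783). Myl9 was at 118, 158 and 74.8 TPM in WT PBS, at 71.1, 63.8 and 91.7 in KO PBS, 79.8, 61.3, 34.8 and 58.7 in WT LPS and 60.7, 34.1, 47.3 and 39.7 in KO LPS. It fell by 0.98 ± 0.29 in WT (adjusted p = 0.0165, lost without WT904 or WT913), while KO gave -0.74 ± 0.29 (adjusted p = 0.0659). Tagln, another smooth muscle protein, was low, between 0.618 and 2.99 TPM, and differed by -0.40 ± 0.25 in WT and 0.56 ± 0.25 in KO (adjusted p = 0.213 and 0.0941).

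Among pericyte genes Vtn fell in both genotypes. Under LPS it was at 180.2, 160.0, 117 and 142 TPM in WT and at 157, 89.9, 151 and 148 in KO, below all PBS libraries of the same genotype. It fell by 0.92 ± 0.22 in WT (adjusted p = 0.005) and by 0.66 ± 0.22 in KO (adjusted p = 0.0305), the KO call being lost without KO911 or KO915 or KO LPS 2. Abcc9, a subunit of the pericyte potassium channel whose pore Kcnj8 encodes, fell by 0.82 ± 0.25 in WT (adjusted p = 0.0181) and by 0.69 ± 0.25 in KO (adjusted p = 0.047). Kcnj8 itself fell in WT by 0.63 ± 0.24 (0.048), Notch3, the mural Notch receptor, by 0.77 ± 0.25 (0.0281) and Higd1b, a capillary pericyte marker, by 0.83 ± 0.28 (0.03). Notch3 was at 17.8, 23.2 and 16.6 TPM in WT PBS and at 14.1, 11.2, 7.30 and 11.6 in WT LPS, and Higd1b at 40.5, 61.4 and 29.8 TPM and at 29.6, 22.9, 16.2 and 26.3, so that both were free of overlap with narrow gaps. The WT fall of Vtn was kept in all 23 alternative fits, while Kcnj8 in WT and Abcc9 in KO were each lost in 14 of 23, 9 of these being fits with a single library removed. In WT, Abcc9 was lost without WT913 or WT LPS 3, Notch3 without these or WT904, and Higd1b without these 3 or WT LPS 2. Rgs5, a regulator of G protein signalling and an abundant pericyte gene, was at 282, 378 and 194 TPM in WT PBS, at 150.4, 138 and 234 in KO PBS, 227, 234, 109 and 181 in WT LPS and 189, 77.1, 173 and 178 in KO LPS, overlapping in both genotypes (-0.61 ± 0.35 and -0.22 ± 0.35). Pdgfrb differed by -0.46 ± 0.24 and -0.48 ± 0.24, and Cspg4, the NG2 proteoglycan, by -0.23 ± 0.29 and -0.04 ± 0.29. In KO the signs of Rgs5, Kcnj8 and Cspg4 turned above 0 after median-of-ratios scaling, as did that of Cspg4 in WT.

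**Figure D3:**
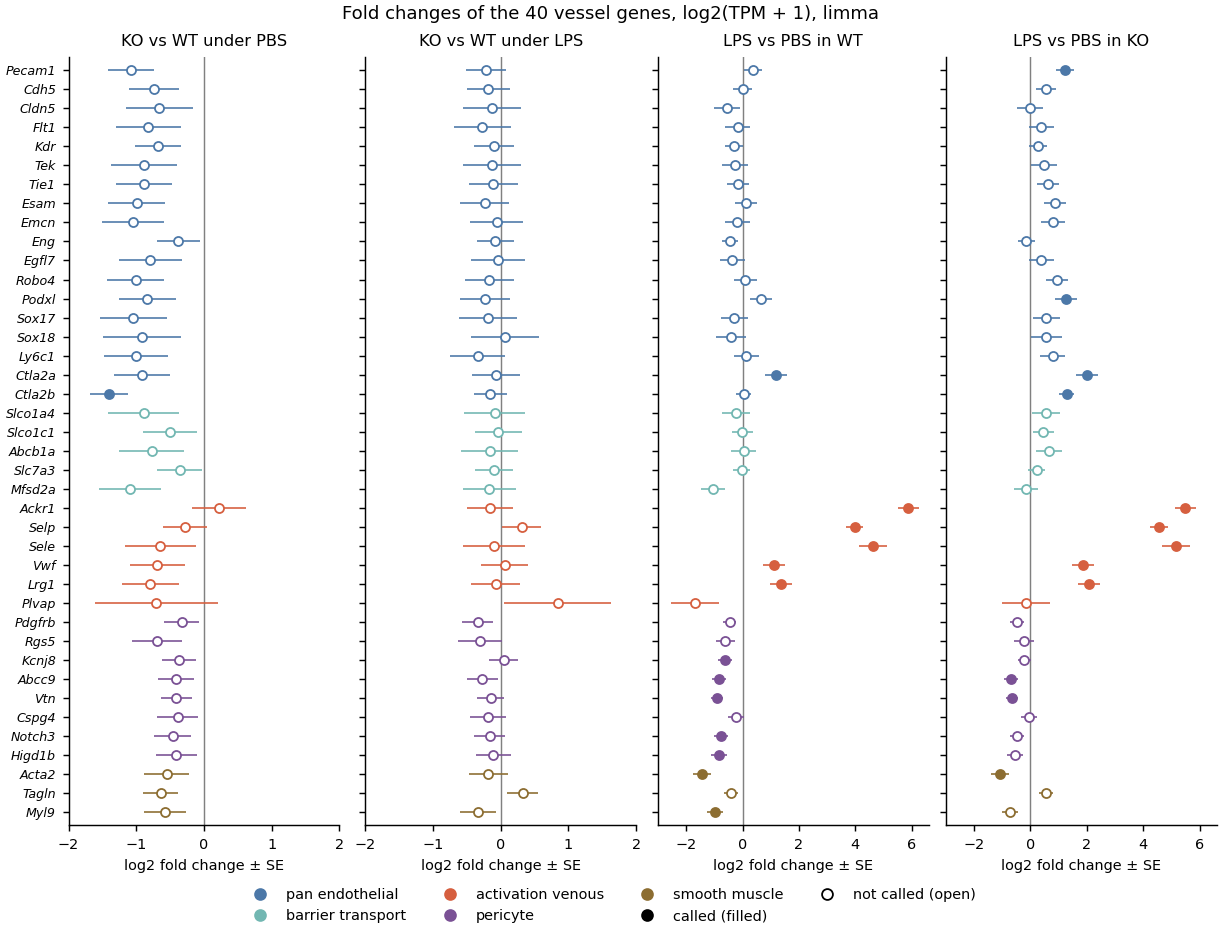
log2 fold change ± SE of log2(TPM + 1) for the 40 genes in 4 comparisons, grouped by role; filled points are genes called by limma at an adjusted p under 0.05. Ackr1, Selp and Sele lie between 3.97 and 5.88 with LPS in both genotypes, while 39 of 40 genes lie below 0 for KO against WT under PBS.

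To set activation and mural genes apart from vessel content, each was also expressed per 100 TPM of the pan-endothelial sum of its library, as a description with no test. Per 100 pan-endothelial TPM, Ackr1 had a mean of 0.103 in WT PBS, 0.240 in KO PBS, 9.55 in WT LPS and 10.04 in KO LPS. Its 8 LPS libraries, spread over 81.0 to 224 TPM, drew together to a range of 7.92 to 13.8 on this scale. Vwf went from 1.08 and 1.16 under PBS to 2.47 and 2.97 under LPS. Without overlap, 4 of 6 activation genes were higher per content in WT (Ackr1, Selp, Sele and Vwf), where 3.97% of all genes were, and 5 of 6 in KO, where 2.88% were. With the mean log2 level of the pan-endothelial genes as a covariate in limma, all 5 activation calls stayed in both genotypes, with adjusted p of 0.0001 for Vwf in WT and 0.0166 for Lrg1 in WT.

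Mural genes were lower relative to endothelial genes in every LPS library than in any PBS library. Their sum was 52.3, 53.0 and 48.8% of the pan-endothelial sum in WT PBS and 78.02, 64.0 and 51.6% in KO PBS. It was 23.6, 27.1, 34.7 and 33.5% in WT LPS and 25.2, 37.3, 25.0 and 30.7% in KO LPS. Per content, 8 of 11 mural genes were lower without overlap in WT, where 14.9% of all genes were, and 10 of 11 in KO, where 11.2% were. Acta2 per 100 pan-endothelial TPM went from 4.80 to 1.76 in WT and from 5.80 to 1.85 in KO. Mfsd2a, too, was lower per content without overlap in both genotypes, at 3.89 against 1.89 in WT and 3.23 against 1.92 in KO.

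Within the pan-endothelial set itself the mix differed between LPS and PBS. Without overlap, 3 of 18 were larger and 4 smaller in WT, where 3.97% and 14.9% of all genes were higher and lower per content. In KO 7 were larger and 3 smaller, where 2.88% and 11.2% of all genes were. The counts of smaller parts were thus not far above those shares. Since these are parts of 1 sum, a larger part for some members means a smaller part for others. Pecam1, Podxl and Ctla2a took a larger part of the sum in every LPS library of both genotypes, Podxl going from 5.79 to 9.35 per 100 in WT and from 5.74 to 9.25 in KO. Cldn5 and Eng took a smaller part without overlap in both, with ratios for Cldn5 of 0.697 in WT and 0.655 in KO. Tek and Tie1, the angiopoietin receptor and its partner, were smaller without overlap in WT, and Flt1, a VEGF receptor, in KO, while Emcn, Esam, Ly6c1 and Robo4 were larger in KO. Under PBS Ackr1 and 3 of 8 pericyte genes (Kcnj8, Pdgfrb and Vtn) were higher per content in KO than in WT without overlap, but so were 29.3% of all genes, and the Ackr1 ratio of 2.34 rests on at most 20 reads a library. Lower per content in KO PBS were Mfsd2a, Sele (on 1 read in 3 KO libraries) and 5 pan-endothelial genes (Pecam1, Emcn, Robo4, Sox17 and Ctla2b), as were 0.518% of all genes, and under LPS 0 members were higher or lower (1.68% and 0.208% of all genes).

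**Figure D4:**
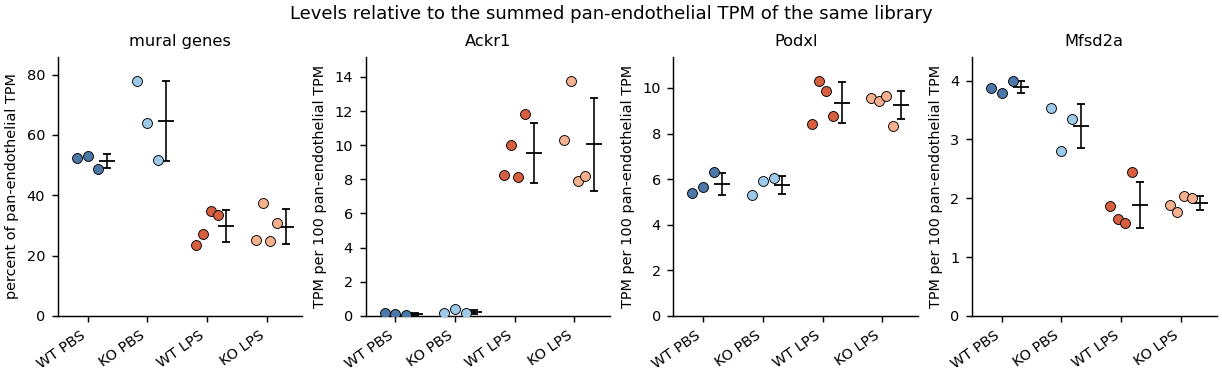
Mural TPM as a percent of pan-endothelial TPM, and Ackr1, Podxl and Mfsd2a per 100 pan-endothelial TPM, in each library (points) with the mean ± SD of each group (bar and whiskers). The mural share is 48.8% or more in all PBS libraries and 37.3% or less in all LPS libraries, and Ackr1 is near 0 in PBS and at 7.92 to 13.8 in LPS libraries.

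The genotype difference in the LPS change, an interaction term, was called by limma for 0 of 40 members (0.0% of all genes). Unadjusted p was under 0.05 for 2 of them, Ctla2b (1.25 ± 0.37, adjusted p = 0.417) and Tagln (0.96 ± 0.35, adjusted p = 0.476), and voom called 0. Among all 18724 genes the unadjusted limma p was under 0.05 for 1780. The interaction estimate was above 0 for 38 of 40, with a median of 0.59 against 0.05 for all genes. The LPS changes of Ackr1 differed by -0.39 ± 0.52 between genotypes, those of Selp by 0.58 ± 0.43 and those of Sele by 0.54 ± 0.70, with adjusted p of 0.832, 0.68 and 0.822. Larger counts of rises in KO than in WT are therefore not shown to be a difference between the genotypes.

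Further vascular genes, from lists drawn up with earlier results of these data known, are given by counts. Among all genes, 7.95% rose and 34.1% fell with LPS in WT, and 7.82% rose and 26.9% fell in KO; after median-of-ratios scaling these shares were 16.2% and 13.2%, and 12.5% and 10.3%. Of 15 further activation genes 11 rose with LPS in WT and 12 in KO, and 0 fell (12 and 12 rose after that scaling), against 7.95% and 7.82% of all genes that rose, but microglia and leukocytes express many of them. Icam1, an adhesion molecule for leukocytes, rose by 1.74 ± 0.11 in WT and 1.13 ± 0.11 in KO (adjusted p = 5.2e-07 and 1.4e-05), and was also higher in KO than WT under PBS, by 0.72 ± 0.11 (adjusted p = 0.0163). Csf3, a granulocyte growth factor, rose by 3.65 ± 0.29 in KO and Ch25h, an oxysterol enzyme, by 4.92 ± 0.39 in WT. Of 8 venous genes 2 rose in WT (Icam1 and Tmem252, the latter by 2.06 ± 0.38). In KO 3 rose (with Il1r1, by 1.37 ± 0.35) and 1 fell. After median-of-ratios scaling 3 venous genes rose and 0 fell in each genotype. Icam1 and Il1r1 are also counted among the 15 activation genes. Of the arterial genes 4 of 11 fell in WT, a share near the 34.1% of all genes. Efnb2, an ephrin of arterial endothelium, fell by 1.52 ± 0.27, Notch4 by 1.34 ± 0.33 and Hey1, a Notch target, by 1.18 ± 0.33. In KO 1 arterial gene rose (Bmx, 0.61 ± 0.20) and 1 fell (Notch4, by 0.98 ± 0.33). After median-of-ratios scaling 3 arterial genes fell in WT and 0 in KO.

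Of 34 further endothelial genes 2 rose and 3 fell with LPS in WT, and 6 rose and 2 fell in KO. The WT rises were near the 7.95% of all genes, and the falls were a smaller share than the 34.1% and 26.9% of all genes. After median-of-ratios scaling 4 rose and 0 fell in WT, where 16.2% and 13.2% of all genes did. In KO 10 rose and 2 fell after that scaling, where 12.5% and 10.3% of all genes did. For KO against WT under PBS 0 of the 34 were called, 30 were below 0 and the median was -0.79. Car4, a capillary carbonic anhydrase, fell with LPS by 1.48 ± 0.47 in WT (adjusted p = 0.0223), a call not kept after median-of-ratios scaling. Pglyrp1, a peptidoglycan receptor gene that brain endothelium and neutrophils both express, rose with LPS by 1.22 ± 0.23 in KO (adjusted p = 0.0015). Of 12 further smooth muscle genes 7 fell in WT, against 34.1% of all genes, among them the myosin kinase gene Mylk (by 1.16 ± 0.27) and the myosin gene Myh11 (by 1.23 ± 0.30), while in KO 4 fell, against 26.9% of all genes, and 2 rose; after median-of-ratios scaling 3 fell and 2 rose in WT, and 1 fell and 2 rose in KO. Of 16 further pericyte genes 4 fell in WT (1 after that scaling) and 0 in KO, smaller shares than the 34.1% and 26.9% of all genes, and the interferon-inducible Ifitm1 rose in both (3.07 ± 0.40 and 3.04 ± 0.40). Perivascular fibroblast genes fell for 6 of 12 in WT (34.1% of all genes) and 3 of 12 in KO, near the 26.9% of all genes, and for 1 and 0 after that scaling. Of 11 basement membrane genes 1 rose and 4 fell in WT, near the 7.95% and 34.1% of all genes. In KO 2 rose and 2 fell, the falls being a smaller share than the 26.9% of all genes. After median-of-ratios scaling 1 rose and 2 fell in WT, and 5 rose and 2 fell in KO. In this list Lama4, a laminin chain of endothelium, rose by 0.98 ± 0.36 in WT and 1.42 ± 0.36 in KO. Sparc, a matrix glycoprotein that microglia also make, fell by 0.97 ± 0.13 in KO. Of 12 growth factors and other ligands that act on vessels, 3 fell in WT, and 2 rose and 2 fell in KO. Falls were again a smaller share than among all genes. Among these ligands Apln, an endothelial peptide, rose by 1.04 in KO. Tgfb1, a growth factor that microglia also make, fell by 0.37 in WT and 0.49 in KO, where the medians of all genes were -0.28 and -0.22. After median-of-ratios scaling 1 ligand rose and 2 fell in WT. In KO 2 rose and 0 fell, so the KO fall of Tgfb1 was not called there.

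Markers of other cells that could be in the isolate moved with LPS as well, and their part in the vessel results was not tested. All 7 monocyte genes rose in both genotypes, against 7.95% and 7.82% of all genes, from summed levels of 280 to 1031 TPM under PBS to 1286 to 2431 under LPS. Neutrophil sums were 5116 to 23480 TPM under PBS and 9218 to 24830 under LPS, with 1 of 10 genes called higher in WT, near the 7.95% of all genes, and 5 in KO (7.82%). Choroid plexus genes, from a tissue with its own fenestrated vessels, fell for 8 of 8 in WT and 7 of 8 in KO (7 and 2 after median-of-ratios scaling), against 34.1% and 26.9% of all genes (13.2% and 10.3%). Microglial genes fell for 4 of 10 in WT, near the 34.1% of all genes, and 8 of 10 in KO, against 26.9% (2 and 4 after that scaling, against 13.2% and 10.3%), from sums of 29049 to 37706 TPM under PBS to 17926 to 27958 under LPS.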

How the data were processed

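RNA was extracted with TRIZOL from MACS-purified microglia and made into libraries with a VAHTS universal kit, per the labels' protocols, which do not give the strand. The submitters' processing notes name STAR 2.7.10b, featureCounts 2.0.1, FastQC 0.11.9 and cutadapt 4.4, and the human build hg38, although all gene IDs are mouse; which build was used is not settled here. The deposited values are TPM, summing to 1000000 in each library, for 41739 genes, of which 12553 were at 0 throughout.

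log2(TPM + 1) of the 18724 genes with at least 1 TPM in at least 3 libraries was fitted with limma 3.58.1 (trend; R 4.3.3) to 4 group means over all 14 libraries, with Benjamini-Hochberg adjustment over all of them. Reads were recovered from TPM and gene lengths (98.4 to 98.6% of values above 0 whole within 0.02) for limma-voom. The limma fit was tested on simulated data. Exact permutation tests were two-sided (scipy 1.17.1). Alternatives were other pseudocounts, filters, scalings and left-out libraries. Genes named are members, and from each further list up to 3 called genes in each direction by p. Members, lists and motifs were chosen with earlier results of these data known. Reads of near-identical pairs (Ctla2a and Ctla2b, Ly6c1 and Ly6c2, Abcb1a and Abcb1b) may be split wrongly.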

Additional observations from a re-analysis of the deposited data

Results flagged for a closer look

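In 6 of 80 groups of libraries, 1 per member gene and LPS group, a library stood far from the other 3; chance marks about 1 in 20 groups. Selp was at 40.8 TPM in WT LPS 4, where the next highest of the group was 18.2. Plvap was at 15.4 TPM in KO LPS 3, the library with pituitary RNA, with 2.26 as the next. Pdgfrb at 12.1, Rgs5 at 77.1 and Vtn at 89.9 TPM were each lowest in KO LPS 2, where the next lowest were 20.0, 173 and 148 TPM, and this was also the library with the lowest pan-endothelial sum of its group. Tagln was at 1.32 TPM in WT LPS 3, just above the next value of 1.11, in a group of otherwise close values.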

How the results depend on the processing

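The rises of Ackr1, Selp and Sele with LPS were kept in 24 of 24 alternatives in both genotypes, those of Vwf and Lrg1 in 24 of 24 in KO, and the falls of Vtn and Acta2 in 23 of 23 in WT. For KO against WT under PBS the count of called members was 1, and it was 0 with a pseudocount of 5, no filter, median-of-ratios scaling, both pituitary-rich libraries left out, the compared groups alone, or voom; with 1 library left out it was 0 to 1. For LPS against PBS in WT the count of 13 went to 8 under median-of-ratios scaling (6 higher, 2 lower), and ran from 6 without WT904 to 14 without KO LPS 2; it was 7 without WT913. In KO the count of 12 ran from 8 without KO911 to 16 without KO LPS 2. No called member reversed direction in the alternatives run. The labels number the LPS libraries 1 to 4 in both genotypes; for KO against WT under LPS, the comparison in which both groups carry these numbers, a fit with the number as a replicate block called 0 members, as did the fit without it, and the numbers did not pair the libraries (correlation of same-numbered deviations -0.086 to 0.061). Low PBS counts of Selp and Sele limit their fold changes.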
